A study of Mus musculus with 9 samples.

Results

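The 10 genes Arntl, Npas2, Per1, Per2, Per3, Dbp, Tef, Nr1d1, Nr1d2 and Ciart of the circadian clock were followed in the colon transcriptome of mice with colitis-associated cancer. They were chosen by name, as 10 of the 21498 gene symbols in the deposited tables, and all 10 passed the filter on low values that left 15278 genes for testing. Each symbol occurred as a gene of GRCm38 in the GENCODE M21 annotation. The values are FPKM, fragment numbers scaled to transcript length and library size, and differences between groups are on the log2(FPKM + 0.1) scale.

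Colon RNA of 9 male ICR mice, an outbred stock, was sequenced, with 3 mice in each of 3 groups. All mice were 5 weeks old at the start, lived under a 12-h light and 12-h dark cycle, and the treated groups were taken at the end of week 18. Control mice received neither AOM/DSS nor antibody, and their tissue is labelled normal colorectal mucosa. The AOM/DSS + IgG Ab group received 1 intraperitoneal dose of azoxymethane (AOM, a colon carcinogen) at 10 mg/kg, then 3 cycles of dextran sulfate sodium (DSS, a chemical that damages the gut lining) in drinking water, at 2% for 7 days, 1.5% for 5 days and 1.5% for 5 days, with a negative control IgG antibody at 1.5 mg/kg given intravenously every 2 days during DSS. The AOM/DSS + anti-S100a9 Ab group had the same AOM and DSS, with a neutralizing antibody against S100a9 at 1.5 mg/kg on the same schedule. Both AOM/DSS groups are labelled colorectal adenocarcinoma. The study's text speaks of intestinal mucosa for all 3 groups in one place, and in another of adenocarcinoma for the IgG group but of mucosa for the anti-S100a9 group. Any pair of groups, the antibody groups included, may therefore differ in the tissue taken as well as in treatment, and these cannot be told apart. By the study's methods, mice were killed sequentially and randomly at the ends of its time points, the last of which was week 18. The time of day is not given in the sources used here. Clock transcripts change with the time of day, so group and time of sampling cannot be told apart in any comparison below.

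In the core loop of the mammalian clock, Arntl (also called Bmal1) pairs with Clock or its relative Npas2 and switches on genes that carry an E-box, among them the Per and Cry repressors, the nuclear receptors Nr1d1 and Nr1d2, Ciart, Dbp and Tef. The Per and Cry proteins then turn off the Arntl complex, and Nr1d1 and Nr1d2 (REV-ERB alpha and beta) repress Arntl and Npas2 through RORE sites, at which the ROR receptors act in the opposite direction. Dbp, Tef and Hlf are PAR bZIP factors that activate D-box genes, at which Nfil3 represses. In tissues with a running clock, Arntl and Npas2 are therefore at their height when Nr1d1 and Dbp are low, and the intestine has such a clock.

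Promoters of 4 of the genes are shown because E-box, E'-box or D-box letters can be read directly in them. RefSeq promoter windows on GRCm38.p6 were found for 9 of the 10 genes, 12 windows in all, and the 250 bases before each annotated start were searched on both strands for the E-box CACGTG, the E'-box CACGTT, the D-box TTATGTAA or TTACGTAA, and the RORE core AGGTCA. The E-box reads the same on both strands. No window of Per2 was in the table. Capitals mark the matches, and each sequence reads 5′ to 3′ on the strand of its gene, with the last base next to the start.
Ciart, chr3:95882229-95882478, minus strand, 3 E-boxes: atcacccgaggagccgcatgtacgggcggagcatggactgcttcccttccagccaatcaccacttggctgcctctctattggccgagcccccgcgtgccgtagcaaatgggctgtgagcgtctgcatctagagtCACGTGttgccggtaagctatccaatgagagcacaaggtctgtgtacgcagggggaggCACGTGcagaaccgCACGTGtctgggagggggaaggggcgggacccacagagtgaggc
Nr1d1, chr11:98775378-98775627, minus strand, 1 E'-box: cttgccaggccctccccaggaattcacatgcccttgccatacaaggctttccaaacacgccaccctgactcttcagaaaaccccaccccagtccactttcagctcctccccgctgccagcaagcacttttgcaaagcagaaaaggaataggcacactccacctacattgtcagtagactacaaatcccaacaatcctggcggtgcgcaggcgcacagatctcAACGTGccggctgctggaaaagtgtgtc
Per3, chr4:151044666-151044915, minus strand, 2 D-boxes: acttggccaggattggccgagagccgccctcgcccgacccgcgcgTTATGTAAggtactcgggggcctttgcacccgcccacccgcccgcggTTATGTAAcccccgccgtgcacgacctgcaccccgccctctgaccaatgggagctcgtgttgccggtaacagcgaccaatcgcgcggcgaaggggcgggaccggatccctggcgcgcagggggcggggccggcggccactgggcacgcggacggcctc
Tef, chr15:81811164-81811413, plus strand, 1 E-box: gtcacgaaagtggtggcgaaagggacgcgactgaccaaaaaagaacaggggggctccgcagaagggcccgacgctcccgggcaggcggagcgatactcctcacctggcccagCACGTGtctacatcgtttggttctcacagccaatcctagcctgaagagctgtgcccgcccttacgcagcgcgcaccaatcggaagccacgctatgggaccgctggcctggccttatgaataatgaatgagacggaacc

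Ciart held its 3 E-boxes 116, 58 and 44 bases before the start, and Per3 its 2 D-boxes 205 and 158 bases before. The single E'-box of Nr1d1, which reads on the opposite strand, began 28 bases before the start, and the E-box of this Tef window 138 bases before. The other Tef window held 1 E-box as well, 127 bases before its start. One of the 2 Per1 windows held an E-box and an RORE core, and the Nr1d2 window held an RORE core. No match was found in the windows of Arntl, Npas2 and Dbp. The E-box was thus found in 4 of the 12 windows, which belong to 3 genes, and in 6.02% of all 32851 promoter windows. The E'-box was found in 3.85%, the D-box in 0.931% and the RORE core in 14.0% of all windows. These are matches of letters and not tests of binding.

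The 9 tables held 21544 rows, and their FPKM values summed to between 308377 and 408811 a mouse. The tables used here hold no counts, so the depth behind each value is unknown and the precision comes from the mice alone. S100a9, the target of the antibody, was at 0.370 to 0.859 FPKM in Control mice, at 63.1 to 267 in the IgG group and at 5.54 to 11.6 in the anti-S100a9 group. An antibody acts on the protein, so this transcript does not check its action. The colonocyte markers summed to 4424 to 5218 FPKM in Control, 1726 to 2978 in IgG and 2739 to 3760 in anti-S100a9 mice, and none of the 8 was at 0 throughout a group, so colon epithelium was represented in each. The 6 neutrophil markers summed to 4.36 to 6.83, 123 to 532 and 18.7 to 31.4 FPKM in the same order, and the 6 adipocyte markers to 77.8 to 278, 9.92 to 46.3 and 19.5 to 36.8 FPKM.

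**Figure D1:**
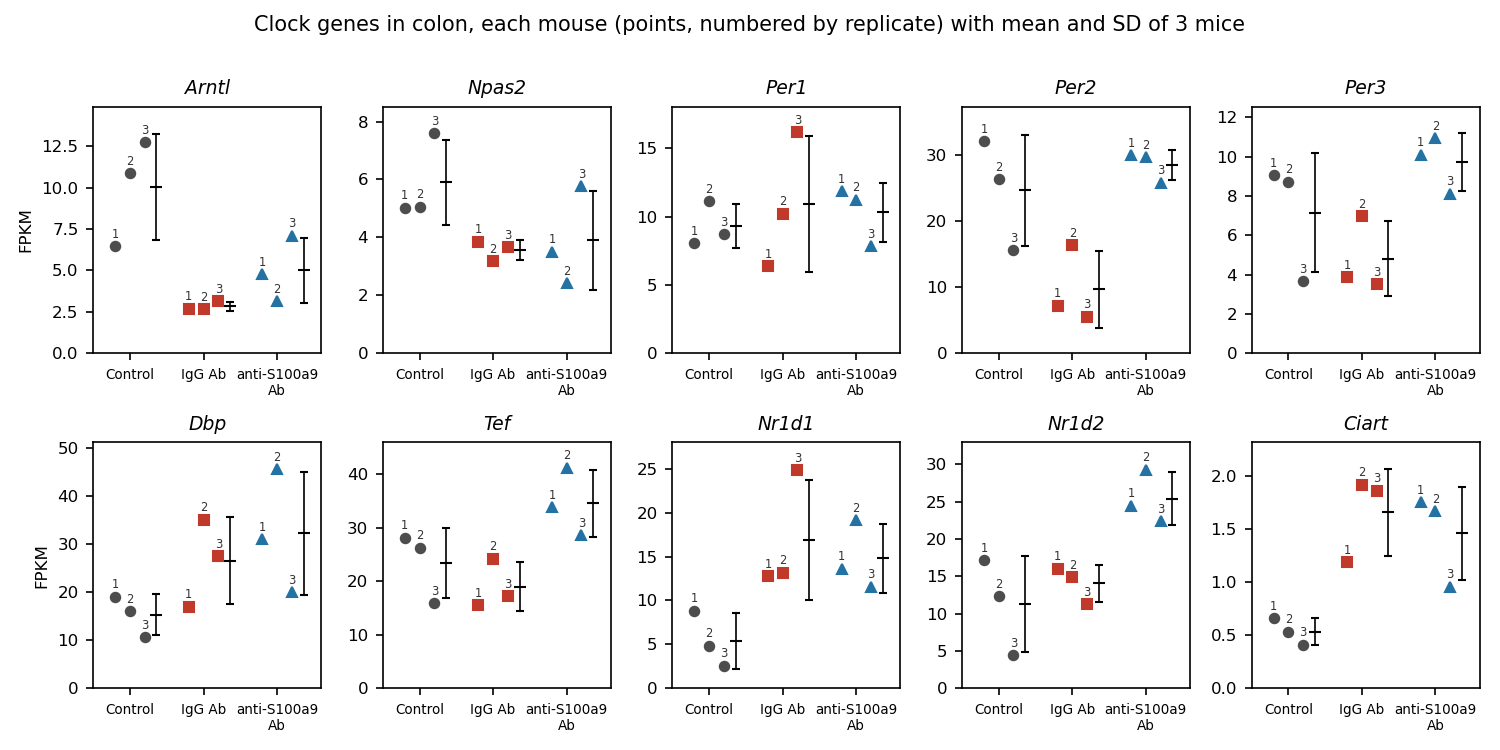
FPKM of the 10 clock genes (vertical axes, linear from 0) in the 9 mice, each point 1 mouse numbered by its replicate, with the mean and SD of 3 mice as a bar beside each group. Arntl is low in all 3 IgG mice, between 2.65 and 3.14, and Per2 is between 25.8 and 29.9 in the anti-S100a9 mice.

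The first question was how the clock genes of AOM/DSS mice given IgG stood against those of untreated mice. Of the 10, 4 passed the test. Arntl and Per2 were lower in the IgG group, 3.33-fold and 2.70-fold, while Nr1d1 and Ciart were higher, 3.30-fold and 2.75-fold. Over all genes tested, 11.2% passed in this comparison (1710 of 15278). The other 6, namely Npas2, Per1, Per3, Dbp, Tef and Nr1d2, did not pass.

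Arntl, the activator of the loop, lies at chr7:113207465-113314126 on the plus strand. It stood at 6.47, 10.9 and 12.7 FPKM in Control mice 1 to 3, at 2.69, 2.65 and 3.14 in the IgG mice and at 4.76, 3.15 and 7.09 in the anti-S100a9 mice. Every IgG value was below every Control value, with the lowest Control mouse at 6.47 and the highest IgG mouse at 3.14 FPKM. The difference between IgG and Control was -1.74 ± 0.33 (log2, SE, n = 3 a group; limma, adjusted p = 0.0138). It was past the threshold in 17 of 18 alternative fits and lost it without Control replicate 2 (log2 -1.65, adjusted p = 0.0588, range over the alternatives 0.0110 to 0.0588). Npas2, which pairs with Arntl as Clock does, was at 5.02, 5.06 and 7.60 FPKM in Control, 3.85, 3.17 and 3.67 in IgG and 3.50, 2.41 and 5.76 in anti-S100a9 mice. The IgG mice again did not overlap the Control mice, but the difference of -0.69 ± 0.31 did not pass (limma, adjusted p = 0.178).

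Nr1d1, the repressor of Arntl transcription, showed the opposite arrangement. It was at 8.85, 4.84 and 2.58 FPKM in Control, 12.8, 13.2 and 24.8 in IgG and 13.6, 19.2 and 11.6 in anti-S100a9 mice, so that each AOM/DSS mouse lay above each Control mouse. The IgG group was higher than Control by 1.72 ± 0.44 on the log2 scale (limma, adjusted p = 0.0382). This call was held in 7 of 18 alternative fits (adjusted p 0.0240 to 0.106). Among the fits that leave out 1 mouse it was kept only without Control replicate 1 or IgG replicate 2, and its size stayed between 1.29 and 2.15. Nr1d1 (chr11:98767932-98775333, minus strand) shares 263 exon bases with Thra on the opposite strand, and whether the counting used strand is not given in the sources used here, so its level is uncertain to that extent. Thra was at 10.9 to 13.3 FPKM in Control, 11.6 to 19.0 in IgG and 10.6 to 14.5 in anti-S100a9 mice, ranges that overlap throughout.

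Ciart, a repressor of the Arntl complex and the gene with 3 E-boxes before its start, had the lowest level of the 10. Its values were 0.661, 0.534 and 0.412 FPKM in Control, 1.19, 1.92 and 1.87 in IgG and 1.75, 1.67 and 0.960 in anti-S100a9 mice. As for Nr1d1, all 6 AOM/DSS mice exceeded all 3 Control mice. The IgG difference was 1.46 ± 0.32 (limma, adjusted p = 0.0226), and it passed in 14 of 18 alternative fits (adjusted p 0.0188 to 0.0761). It was lost without Control replicate 2, Control replicate 3 or IgG replicate 3, and in the fit of these 2 groups alone.

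Per2, a repressor whose protein pairs with Cry, went down with Arntl. Control mice held 32.1, 26.4 and 15.5 FPKM, IgG mice 7.16, 16.4 and 5.53, and anti-S100a9 mice 29.9, 29.6 and 25.8. IgG replicate 2 lay above Control replicate 3, so the groups overlapped. The difference of -1.43 ± 0.39 was just past the threshold (limma, adjusted p = 0.0491) and kept it in only 5 of 18 alternative fits (adjusted p 0.00602 to 0.142). Among the fits without 1 mouse, it passed without Control replicate 3 and without IgG replicate 2 and failed in the other 7.

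For 4 of the 10 genes the IgG and Control mice did not overlap, namely Arntl, Npas2, Nr1d1 and Ciart, against 31.0% of all genes tested. By the call rule of the study's methods, an unadjusted p under 0.05 with more than 2-fold change, the same 4 genes as in the test were called, against 13.6% of all genes. The median log2 difference of the 10 genes was -0.07, beside 0.09 over all genes tested. In bulk tissue, fewer cells of a type and less RNA per cell cannot be told apart. Between IgG and Control, 6 of 6 neutrophil, 4 of 6 fibroblast and 4 of 5 tested squamous epithelium markers passed the test as higher. As lower, 3 of 8 colonocyte and 4 of 5 tested adipocyte markers passed. Taken with the markers that did not pass, the median log2 difference was -1.70 for the 8 colonocyte markers. It was -1.06 for the 8 smooth muscle markers, of which 0 passed. What these cell markers contribute to the clock differences was not tested.

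The second question was where the same genes stood in AOM/DSS mice given anti-S100a9 Ab instead of IgG. Per2 was 3.25-fold higher and Tef 1.83-fold higher in the anti-S100a9 group, and no member passed as lower. Thus 2 of the 10 genes passed, whereas 21.1% of all genes did. Arntl, Nr1d1 and Ciart, called against Control in the IgG mice, did not pass here. This comparison and the last one share the IgG mice.

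Per2 separated the antibody groups completely, as its lowest anti-S100a9 mouse (25.8 FPKM) lay above its highest IgG mouse (16.4). The difference was 1.70 ± 0.39 (limma, adjusted p = 0.0219) and passed in 13 of 18 alternative fits (adjusted p 0.00473 to 0.0743). It lost the threshold without IgG replicate 1 or 3 and without any 1 of the 3 anti-S100a9 mice, with sizes between 1.38 and 1.77 in these fits.

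Tef, a D-box activator, was at 28.1, 26.3 and 15.9 FPKM in Control, 15.6, 24.2 and 17.2 in IgG and 33.8, 41.2 and 28.6 in anti-S100a9 mice. All anti-S100a9 mice were above all others. Against IgG the difference was 0.87 ± 0.26 (limma, adjusted p = 0.0445), held in 10 of 18 alternative fits (adjusted p 0.0199 to 0.141). It failed without Control replicate 2, without IgG replicate 1 or 3 and without any 1 anti-S100a9 mouse. Tef shares 193 exon bases with the antisense gene Gm17597, which has no row in the tables.

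Per3, the Per gene with 2 D-boxes before its start, was like Per2 lowest on average in IgG mice. It stood at 9.07, 8.73 and 3.66 FPKM in Control, 3.87, 6.99 and 3.51 in IgG and 10.1, 11.0 and 8.11 in anti-S100a9 mice. The antibody groups did not overlap, and the difference of 1.06 ± 0.38 missed the threshold (limma, adjusted p = 0.0742). Per1, the third Per gene and one that is also induced acutely by many stimuli, showed no such order. Its values were 8.06, 11.1 and 8.74 FPKM in Control, 6.35, 10.2 and 16.2 in IgG and 11.9, 11.2 and 7.85 in anti-S100a9 mice, and the groups overlapped in every comparison. The 95% interval of its difference between antibody groups ran from -0.73 to 0.73.

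Nr1d2, the partner of Nr1d1, was the most variable member in Control mice, with 17.1, 12.3 and 4.44 FPKM. It was at 16.0, 14.9 and 11.2 in IgG and at 24.5, 29.3 and 22.4 in anti-S100a9 mice, each of the last above all other mice. The difference from IgG, 0.86 ± 0.42, did not pass (limma, adjusted p = 0.164). Nr1d1 itself did not differ detectably between the antibody groups, at -0.15 with a 95% interval of -1.14 to 0.83, nor did Ciart, at -0.18 with an interval of -0.90 to 0.53. Arntl was 0.73 ± 0.33 higher in the anti-S100a9 group without overlap, and this did not pass either (limma, adjusted p = 0.134).

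Dbp, a D-box activator and one of the most rhythmic transcripts in many tissues, was at 19.1, 16.1 and 10.7 FPKM in Control, 17.0, 35.1 and 27.5 in IgG and 31.0, 45.7 and 20.1 in anti-S100a9 mice. The IgG range overlapped both others. Its difference between IgG and Control was 0.77 ± 0.36 (limma, adjusted p = 0.195), and between the antibody groups 0.26 ± 0.36 (limma, adjusted p = 0.616). Dbp shares 539 exon bases with Sphk2 on the opposite strand, which was at 20.4 to 28.6 FPKM in Control, 15.8 to 17.4 in IgG and 13.7 to 17.7 in anti-S100a9 mice.

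For 5 of the 10 genes the mice did not overlap between the antibody groups (Arntl, Per2, Per3, Tef and Nr1d2, each higher under anti-S100a9 Ab), against 46.9% of all genes tested. The study's call rule took Per2 and Per3, 2 of 10, against 16.0% of all genes. The members' median difference was 0.50, beside -0.06 over all genes. In the same comparison 5 of 6 neutrophil, 4 of 5 tested squamous epithelium, 3 of 6 fibroblast and 3 of 6 proliferation markers passed the test as lower. As higher, 2 of 8 colonocyte, 2 of 8 smooth muscle and 3 of 6 enteric neuron and glia markers passed. Taken with the markers that did not pass, the median log2 difference was 0.97 for the colonocyte and 1.48 for the smooth muscle markers. The smooth muscle markers, from a layer with a clock of its own, summed to 526, 1102 and 3289 FPKM in IgG mice 1 to 3 and to 4162, 3609 and 2296 FPKM in anti-S100a9 mice 1 to 3. Both this sum and Per2 were thus higher on average in the anti-S100a9 group, and within it Per2 followed the order of the sum, while among the IgG mice Per2 was highest in replicate 2. What these cell markers contribute to the clock differences was not tested.

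**Figure D2:**
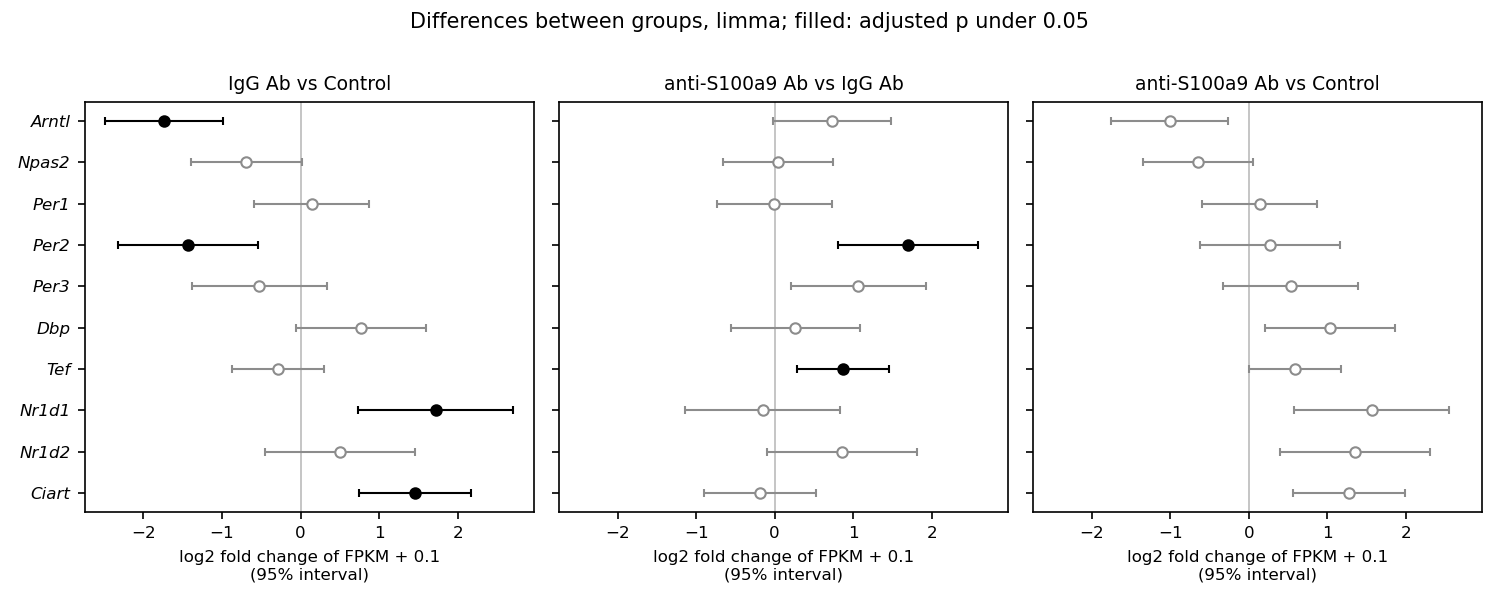
Log2 fold changes of the 10 clock genes (horizontal axis, on FPKM + 0.1) in the 3 comparisons, with 95% intervals from limma and filled points for an adjusted p under 0.05. Arntl, Per2, Nr1d1 and Ciart are filled in IgG against Control, Per2 and Tef in anti-S100a9 against IgG, and none in anti-S100a9 against Control.

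The third comparison set the anti-S100a9 mice against Control. No member passed the adjusted threshold in limma, and 5 had an unadjusted p under 0.05. Over all genes, 0.0131% passed (2 of 15278), and 2439 had an unadjusted p under 0.05. By the study's call rule 5 of the 10 were called, against 3.15% of all genes: Arntl was 2.01-fold lower, and Nr1d1 (2.96-fold), Nr1d2 (2.56-fold), Ciart (2.42-fold) and Dbp (2.05-fold) were higher. Each of these 5 had an adjusted p of 0.301. Dbp, Tef, Nr1d1, Nr1d2 and Ciart did not overlap between these groups and were higher in the anti-S100a9 mice, 5 of 10 against 31.0% of all genes, while Arntl overlapped through anti-S100a9 replicate 3 and Control replicate 1. Per2, by contrast, differed by 0.27 with a 95% interval of -0.62 to 1.16. The median difference of the members was 0.56, beside 0.04 over all genes. None of the 9 marker lists had a gene past the adjusted threshold in this comparison. By the study's call rule, 3 of 6 neutrophil markers were higher, and 4 of 5 tested adipocyte markers and 1 of 8 colonocyte markers were lower. The summed neutrophil and fibroblast markers were higher, and the summed adipocyte and colonocyte markers lower, in every anti-S100a9 mouse than in every Control mouse (fibroblast markers 559 to 734 FPKM against 412 to 497). A sum follows its most abundant genes. Guca2a, the called colonocyte marker, had a mean of 1941 FPKM in Control and 632 in anti-S100a9 mice, while the median log2 difference of the 8 was -0.13. The fibroblast markers had a median of 0.43, and Col1a1 was at a mean of 42.2 FPKM in Control and 39.9 in anti-S100a9 mice. What these contribute to the clock differences was not tested.

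The relation between genes within a mouse was then described, since a ratio of 2 clock genes does not depend on how a library was scaled. Nr1d1 divided by Arntl gave 1.37, 0.446 and 0.203 in Control mice 1 to 3, 4.76, 4.96 and 7.90 in IgG mice and 2.86, 6.08 and 1.63 in anti-S100a9 mice. Every AOM/DSS mouse was above every Control mouse. For the IgG mice this had to be so, since neither gene overlapped Control and they lay in opposite directions. Nr1d1 divided by Per2 gave 0.276, 0.184 and 0.166 in Control, 1.79, 0.805 and 4.48 in IgG and 0.455, 0.647 and 0.449 in anti-S100a9 mice. For this ratio the 3 groups were fully apart, in the order Control, anti-S100a9, IgG. Nr1d1 was called as higher and both Arntl and Per2 as lower in IgG than in Control, so neither ratio is separate support. How often other gene pairs separate the groups was not computed. Arntl and Nr1d1 are opposite ends of the loop, whereas Nr1d1 and Per2 both carry E-box control. On average the IgG mice had a high Nr1d1 level beside low Arntl and low Per2. Per2 of IgG replicate 2 (16.4 FPKM) was above that of Control replicate 3 (15.5 FPKM). The calls of Nr1d1 and Per2 against Control held in 7 and 5 of 18 alternative fits. The cause of this arrangement was not tested.

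A summary of the arms was the mean log2 level of the 8 genes driven through E-boxes or D-boxes (all members other than Arntl and Npas2) minus the mean of Arntl and Npas2. It was 0.86, 0.26 and -0.93 in Control mice, 1.23, 1.99 and 1.49 in IgG mice and 1.83, 2.57 and 0.80 in anti-S100a9 mice. The group means were 0.07 ± 0.91, 1.57 ± 0.39 and 1.74 ± 0.89 (SD, n = 3). IgG mice lay above all Control mice, and anti-S100a9 replicate 3 lay just below Control replicate 1. The make-up of this score differed between the AOM/DSS groups. Against Control, the 8 genes ran from -1.43 (Per2) to 1.72 (Nr1d1) in IgG mice, with Per3 and Tef also lower. In anti-S100a9 mice they ran from 0.14 (Per1) to 1.57 (Nr1d1). Arntl and Npas2 were at -1.74 and -0.69 in IgG and at -1.01 and -0.65 in anti-S100a9 mice.

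**Figure D3:**
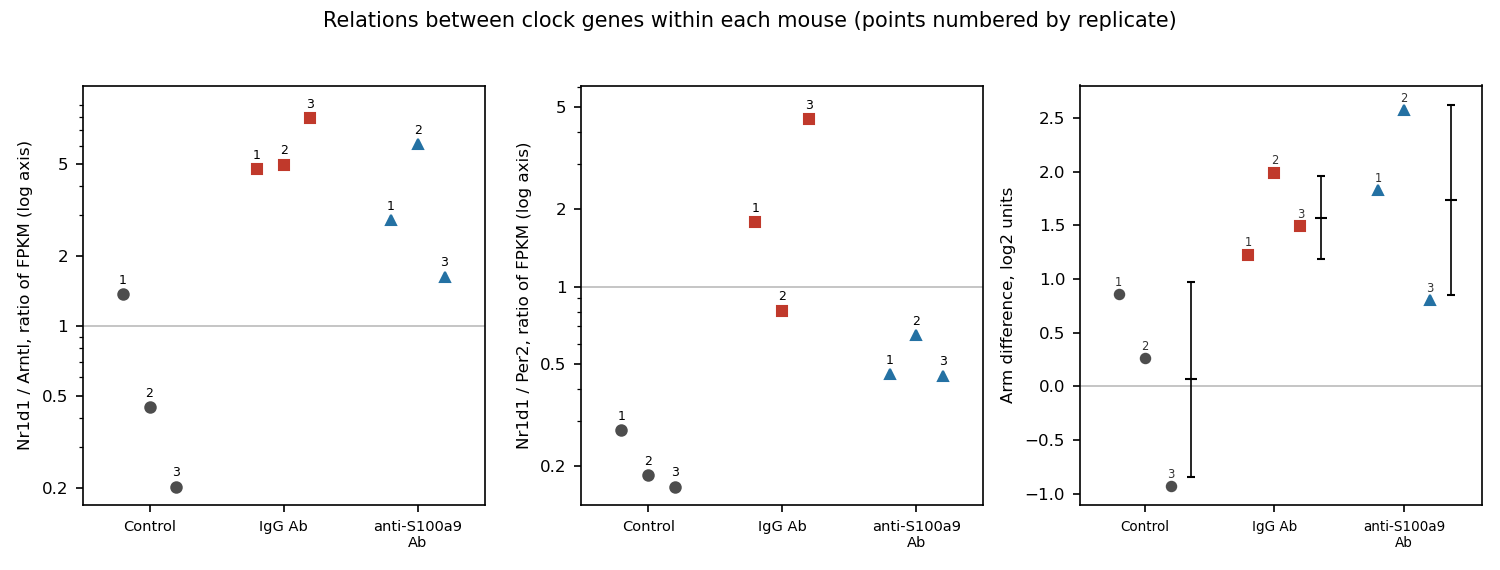
Ratio of Nr1d1 to Arntl and of Nr1d1 to Per2 in FPKM (left and middle, log axes), and the arm difference in log2 units (right, with mean and SD of 3 mice), each point 1 mouse. The Nr1d1 to Arntl ratio is at least 1.63 in all AOM/DSS mice and at most 1.37 in Control mice.

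The median spread among the mice of a group was larger over these genes than over all genes tested, though not for every member. The median SD of the log2 level over the 10 genes was 0.48 in Control, 0.45 in IgG and 0.34 in anti-S100a9 mice, beside 0.29, 0.34 and 0.18 over all genes tested. In Control, 8 of the 10 had an SD above that of the median gene, in IgG 6 and in anti-S100a9 mice 9. Nr1d2 spread most in Control (SD 1.00), Per2 in IgG (0.81) and Npas2 in anti-S100a9 mice (0.61), while Arntl was tightest in IgG (0.13) and Per2 in anti-S100a9 mice (0.12). Control replicate 3 had the highest Arntl and Npas2 and the lowest Per2, Per3, Dbp, Tef, Nr1d1, Nr1d2 and Ciart of its group. Without this mouse the median SD of the members in Control was 0.19. That value rests on fewer mice, and the median over all genes without this mouse was not computed. Within the anti-S100a9 group, replicate 3 likewise held the highest Arntl and Npas2 and the lowest value of each of the other 8 genes.

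Of 20 further clock and clock-regulating genes, 19 were tested (Rorb was too low). Of these, 5 passed between IgG and Control, 3 higher and 2 lower, against 11.2% of all genes tested. Between the antibody groups 6 passed, 3 higher and 3 lower, against 21.1% of all genes. None passed between anti-S100a9 and Control in limma, where 5 had an unadjusted p under 0.05. Of all 15278 genes, 2 passed there and 2439 had an unadjusted p under 0.05. The median differences of the 19 genes were 0.10, 0.48 and 0.16 in the 3 comparisons, beside 0.09, -0.06 and 0.04 over all genes tested. Among those that passed, Hlf, Nfil3, Bhlhe40 and Csnk1e did so in both of the first comparisons, each in opposite directions, and the IgG mice enter both.

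Hlf, the PAR bZIP relative of Dbp and Tef, was at 2.41, 2.96 and 1.79 FPKM in Control, 0.889, 1.07 and 0.928 in IgG and 4.18, 4.42 and 3.43 in anti-S100a9 mice, and the 3 groups did not overlap. Its difference was -1.20 ± 0.23 in IgG against Control (limma, adjusted p = 0.0153) and 1.95 ± 0.23 in anti-S100a9 against IgG mice (limma, adjusted p = 0.00349, 18 of 18 alternative fits). The first call was lost without Control replicate 1 or 2 and in the fit of the 2 groups alone. Nfil3, the D-box repressor and an immune regulator, ran the other way, with 1.51, 1.68 and 3.81 FPKM in Control, 5.05, 5.51 and 13.6 in IgG and 1.49, 1.27 and 1.81 in anti-S100a9 mice. Its differences were 1.71 ± 0.45 (limma, adjusted p = 0.0424) and -2.19 ± 0.45 (limma, adjusted p = 0.0161), the first of which held in 8 and the second in 16 of 18 alternative fits.

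Bhlhe40 (DEC1), which competes for E-boxes, was 0.76 ± 0.16 higher in IgG than in Control and fell by 0.54 ± 0.16 in anti-S100a9 against IgG mice (limma, adjusted p = 0.0226 and 0.0462). Its second call held in only 6 of 18 alternative fits (adjusted p up to 0.158). Csnk1e, a kinase that phosphorylates Per proteins, was at 4.67, 5.40 and 4.51 FPKM in Control, 20.95, 10.0 and 12.9 in IgG and 6.54, 6.46 and 4.62 in anti-S100a9 mice. It was 2.84-fold higher in IgG than in Control (limma, adjusted p = 0.0112, 18 of 18 alternative fits) and 2.38-fold lower in anti-S100a9 than in IgG mice (limma, adjusted p = 0.0185), the latter lost without any 1 anti-S100a9 mouse.

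Clock, Cry1 and Cry2, core genes of the loop, did not pass. Clock, the partner of Arntl, was at 8.59, 8.23 and 4.55 FPKM in Control, 8.74, 6.92 and 5.54 in IgG and 11.4, 11.1 and 10.7 in anti-S100a9 mice. The IgG and Control mice overlapped, and the anti-S100a9 mice were above all others, by 0.66 ± 0.26 against IgG (limma, adjusted p = 0.0967). Cry1 was at 14.8, 17.6 and 15.4 FPKM in Control, 12.1, 12.1 and 6.38 in IgG and 16.7, 16.0 and 16.6 in anti-S100a9 mice, with all IgG mice lowest (limma, adjusted p = 0.0902 against Control and 0.0529 between the antibody groups). Cry2 overlapped between all groups, with differences of -0.37 and 0.33 in the same order.

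**Figure D4:**
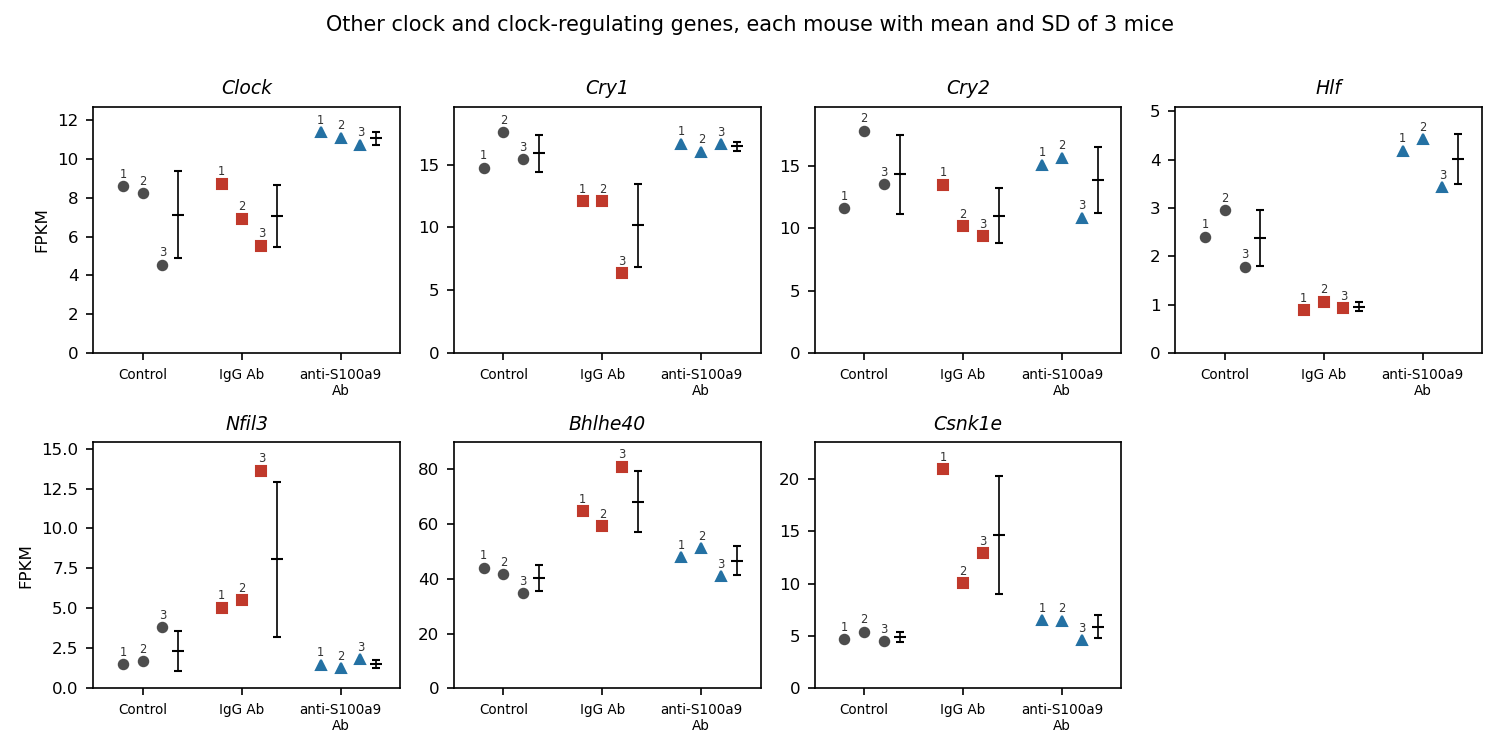
FPKM of 7 other clock and clock-regulating genes (vertical axes, linear from 0), each point 1 mouse, with mean and SD of 3 mice. Hlf is lowest and Nfil3, Bhlhe40 and Csnk1e highest in the 3 IgG mice, and Clock, Cry1 and Cry2 did not pass the test.

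Genes listed as outputs of the clock were read as a list of 10. Of these, 5 passed between IgG and Control, against 11.2% of all genes tested. They were 4 lower and 1 higher (Tspan4, 1.70-fold, named after its value was seen and called in 7 of 18 alternative fits). Between the antibody groups 4 passed, all higher under anti-S100a9 Ab, against 21.1% of all genes. The median difference of the list was -0.93 and 0.68, beside 0.09 and -0.06 over all genes tested. The glucose transporter Slc5a1 was at 46.5, 45.0 and 28.2 FPKM in Control, 12.9, 25.9 and 16.6 in IgG and 34.0, 40.5 and 42.3 in anti-S100a9 mice, and the peptide transporter Slc15a1 and the drug efflux pump Abcb1a were likewise lowest in the 3 IgG mice. These 3 are genes of absorptive epithelium, and they were 2.19-fold, 5.75-fold and 3.20-fold lower in IgG than in Control (limma, adjusted p = 0.0336, 0.0350 and 0.0471) and by 1.12, 2.58 and 2.25 on the log2 scale higher in anti-S100a9 than in IgG mice (limma, adjusted p = 0.0256, 0.0241 and 0.0156). The first calls of these genes were kept in 10, 10 and 7 and the second in 13, 14 and 16 of 18 alternative fits. Of the 8 colonocyte markers, 3 passed as lower in IgG against Control, and the median log2 difference of the 8 was -1.70. Wee1, a kinase of the cell cycle under E-box control, was 2.02-fold higher in anti-S100a9 than in IgG mice (limma, adjusted p = 0.0290, 13 of 18 alternative fits). Cyp2e1, a drug-metabolizing enzyme, was at 6.07, 31.2 and 3.31 FPKM in Control and below 1 FPKM in each AOM/DSS mouse (limma, adjusted p = 0.0151 for IgG against Control, 17 of 18 alternative fits), and the adipocyte markers were highest in the same Control mouse, replicate 2.

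Glucocorticoids and body temperature also reset clock genes, and lists of 8 genes each were read for both. Over all genes tested, 11.2% passed between IgG and Control and 21.1% between the antibody groups. Of the glucocorticoid-responsive genes none passed between IgG and Control in limma. There 3 of the 8 had an unadjusted p under 0.05, beside 4507 of all 15278 genes. Zbtb16 (4.51-fold) and the receptor Nr3c1 (2.53-fold) were higher in anti-S100a9 than in IgG mice (limma, adjusted p = 0.0302 and 0.0154, kept in 14 and 16 of 18 alternative fits). The rest of this list did not pass there. Their log2 differences were 1.26 for Klf9, 0.97 for Sgk1, 0.79 for Fkbp5, 0.72 for Tsc22d3, 0.02 for Errfi1 and -0.31 for Dusp1. Among the IgG mice, Fkbp5 ran from 4.85 to 44.0 FPKM and Sgk1 from 9.13 to 55.6 FPKM. Of the temperature-responsive genes, the cold-inducible Cirbp was 2.27-fold higher in IgG than in Control (limma, adjusted p = 0.0486), a call that was kept in only 1 of 18 alternative fits (adjusted p up to 0.139). It was 2.77-fold lower in anti-S100a9 than in IgG mice (limma, adjusted p = 0.0195, 15 of 18 alternative fits). The heat shock genes Hspa1a and Hspa1b were 3.06-fold and 2.81-fold higher in anti-S100a9 than in IgG mice (limma, adjusted p = 0.0123 and 0.00704, both in 18 of 18 alternative fits). These 2 genes are near-identical copies, so reads can be split between them. The other 5 temperature-responsive genes did not pass in either comparison. Between the antibody groups their log2 differences were mixed: 0.69 for Hsph1, 0.64 for Rbm3, 0.03 for Hsp90aa1, -0.04 for Dnajb1 and -0.47 for Hspa8. The median log2 difference of the list was -0.49 between IgG and Control and 0.34 between the antibody groups, beside 0.09 and -0.06 over all genes tested.

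Genes with the most similar pattern over the 9 mice were found by the root-mean-square difference between log2 profiles centred on their means. The search covered 12541 genes with a mean of at least 1 FPKM and left out the 10 clock members, so no member could appear. Nearest to Dbp were Col8a1 (0.24), Plxdc2 (0.25), Vgll3 (0.26), Bicc1 (0.27) and Kirrel (0.28). Nearest to Arntl were Phospho1 (0.28), Mettl20 (0.32), Car11 (0.33), Tceal3 (0.35) and Cox7a1 (0.36). None of these 10 is in the list of other clock and clock-regulating genes. How near the members lie to each other was not ranked, and with 9 mice a near profile is a description only.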

How the data were processed

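Total RNA of mouse colon was sequenced on the Solexa platform by the authors, who kept samples with an RNA integrity number of at least 7. The submitters' processing notes name TopHat, Cufflinks, HTSeq, DESeq and the build GRCm38, without versions. The authors deposited 1 table of FPKM values per mouse; no file names its unit, which was inferred from decimal values scaled to length. No counts are given, so the study's DESeq test was not repeated. Rows that repeated a symbol were added up (46 of them). Genes needed 0.1 FPKM or more in 3 or more mice to be tested, on the scale log2(FPKM + 0.1), and 15278 did. One model of all 9 mice was fitted with limma 3.58.1 in R 4.3.3 (eBayes with an intensity trend, Benjamini-Hochberg adjustment over all genes tested, threshold 0.05), and the code was checked on simulated data. Alternatives covered the pseudocount, filter, scaling, trend, samples in the fit, a replicate block, the study's call rule and leaving out each mouse. Gene positions come from the GENCODE M21 annotation (GRCm38), in which 97.5% of the symbols occur. The labels call samples biological replicates, and no 2 files held the same values. Named genes are all members, the called genes of the other clock list with Clock, Cry1 and Cry2, up to 5 called genes of each further list, and the 5 profiles nearest to Dbp and to Arntl. The members and all lists were chosen with earlier results of these data known. Some genes of the other clock list are counted but not reported here by name.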

Additional observations from a re-analysis of the deposited data

How the results depend on the processing

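With 3 mice a group and no counts, the spread between mice is the only measure of precision. Against the values used, quantile normalization moved the median of all genes between IgG and Control by -0.12 and median-of-ratios scaling by -0.10. Nr1d1 lost its call under both scalings, and Arntl, Ciart and Per2 kept theirs. The cause of the changes below was not tested, apart from the smaller number of mice in the fits that leave out 1. The replicate numbers did not pair the mice, with correlations of same-numbered deviations from -0.19 to 0.25. With a replicate block, 3 members passed between IgG and Control (Arntl, Ciart, Per2), 3 between the antibody groups (Per2, Per3, Tef) and 0 between anti-S100a9 and Control.

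Between IgG and Control, the fit of the 2 groups alone gave 1 called member (Arntl), 2 other clock genes and 0 output genes. Median-of-ratios scaling gave 3 other clock genes and the fit with no intensity trend 3 output genes. The 1 call among temperature-responsive genes, Cirbp, became 0 under all 9 other settings, and the study's call rule gave 2 glucocorticoid-responsive genes. Between the antibody groups, the fit with no filter and the fit with no trend gave 1 member each (Per2) and the fit of the 2 groups alone 4 (Nr1d2, Per2, Per3, Tef). Between anti-S100a9 and Control, the study's call rule gave 5 members, 1 output gene (Cyp2e1) and 1 glucocorticoid-responsive gene (Klf9).

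Without 1 mouse, between 0 (without Control replicate 2) and 4 members were called in IgG against Control, 2 to 7 other clock genes, 1 to 6 output genes, 0 to 2 glucocorticoid-responsive and 0 to 2 temperature-responsive genes. Between the antibody groups the ranges were 0 to 4 members (0 without IgG replicate 1 or 3 or any 1 anti-S100a9 mouse), 1 to 10 other clock genes, 0 to 6 output genes, 0 to 3 glucocorticoid-responsive and 2 to 3 temperature-responsive genes. The median SD of the members in Control ran from 0.19 (without replicate 3) to 0.64.

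Reversed directions concerned differences that were not called. Between IgG and Control, Per1 was at -0.023 and Clock at -0.14 under quantile normalization, and Clock at -0.0874 under median-of-ratios scaling. Without 1 mouse, Per1 ran from -0.19 to 0.48, Nr1d2 from -0.065 to 0.90 and Clock from -0.27 to 0.18. Between the antibody groups, Per1 was at 0.11 and 0.076 under the 2 scalings. Without 1 mouse, Npas2 ran from -0.28 to 0.33, Per1 from -0.34 to 0.33, Dbp from -0.028 to 0.56, Nr1d1 from -0.36 to 0.16 and Ciart from -0.39 to 0.074. Between anti-S100a9 and Control, Per2 ran from -0.034 to 0.49, Cry1 from -0.0019 to 0.12 and Cry2 from -0.18 to 0.13. Taken as Dbp minus Arntl alone, the arm difference averaged 0.62 in Control, 3.13 in IgG and 2.66 in anti-S100a9 mice. Here the IgG mean was the higher of the AOM/DSS groups. With all members it was the lower, at 1.57 against 1.74.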
